A study of Mus musculus with 9 samples.

Results

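The genes described here are 8 Krueppel-like factor genes, Klf2, Klf3, Klf4, Klf6, Klf7, Klf9, Klf10 and Klf13, in libraries of sorted mouse haematopoietic stem cells. They were taken by symbol from a table of read counts with 52550 gene identifiers. All 8 were found, all are annotated as protein-coding, and all 8 passed the filter on low counts that left 32582 genes to test. The members were selected on their counts and fold changes in these same libraries, which were known from an earlier analysis. Their levels and fold changes are therefore a description, and the number of them past a test's threshold is given beside the share of all genes past it with nothing read from the count.

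The study sequenced 3 libraries from each of 3 groups. Old knockout (KO) mice, 22 to 24 months old, carried the allele B6N.129S6-Sphk2tm1Rlp/J, which the labels also call Sphk2 cKO without naming a Cre driver. Old wild-type (WT) mice were of the same age range and young WT mice were 2 months old. No treatment is named for any group. Each library was made from 1000 marrow cells in a gate for cells without lineage markers that carry Sca1, c-Kit and CD150 but not CD48, and the cDNA was amplified with 13 PCR cycles and read as paired ends of 150 bp. The labels describe the 3 libraries of a type as technical replicates and name no animal, so p-values measure only the spread between these samples. In bulk RNA of this kind, fewer cells of a type and less RNA per cell cannot be told apart.

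Krueppel-like factors are zinc-finger proteins that bind CACCC and GC-rich DNA, some as activators and some as repressors. Several of their genes are early response genes, whose RNA appears within minutes to hours of a stimulus and decays quickly. In endothelial cells, Klf2 and Klf4 are induced by a kinase cascade that ends in Mapk7 (ERK5) and the MEF2 factors, and in lymphocytes Klf2 holds cells in quiescence and activates the gene of the sphingosine-1-phosphate receptor S1pr1. The kinase encoded by Sphk2 makes sphingosine-1-phosphate.

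The libraries differed in depth and in how many of their counts lay outside genes. Counts in genes ranged from 11284847 to 17544945 in old KO, 3145167 to 5115003 in old WT and 28088637 to 74021822 in young WT libraries. Counts outside annotated genes made up 45.0% to 61.9% of all counts in old KO, 80.8% to 87.7% in old WT and 6.51% to 12.5% in young WT libraries. Reads per kb of exon in 1134 olfactory receptor genes, the genes of smell, served as the background of a library. A gene was taken as above background when it had 20 counts or more and 5 or more times what its exon length would collect at that density. By this measure 2877 to 4171 protein-coding genes were above background in old KO, 640 to 1129 in old WT and 7379 to 8122 in young WT libraries. Of 7 stem cell and sort markers, 6 were above background in at least 2 libraries in old KO, 0 in old WT and 6 in young WT, and Kit, Ly6a and Mecom were above background in no old WT library. Their summed level was 1022 to 2174 CPM in old KO, 104.6 to 1854 CPM in old WT and 923.5 to 1353 CPM in young WT, where CPM is a gene's count scaled by the sum over all genes of that library. Sphk2 itself had 8 to 23 counts in old KO, 1 to 35 in old WT and 88 to 1684 in young WT, so its counts did not separate the old KO from the old WT labels. The part of these library differences in the results below was not tested.

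Klf4, Klf6, Klf9, Klf10 and Klf13 shared one pattern: each was above background in all 3 old KO and all 3 young WT libraries and in 0 of 3 old WT libraries. Klf11, Srf, Smad7 and Cdkn1b, from the lists of other genes below, had the same pattern. The share of all genes with it was not computed. Only 640 to 1129 protein-coding genes were above background in old WT libraries, against 2877 to 4171 in old KO. Klf2 was above background in all 9 libraries and was the only one of the 8 genes above it in any old WT library. Klf3 and Klf7 were near background or uneven between libraries of a group. Within the 8 genes the balance differed between groups, with Klf4 holding the largest share of the counts in old KO, Klf2 in old WT, and Klf2 and Klf6 together in young WT.

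**Figure D1:**
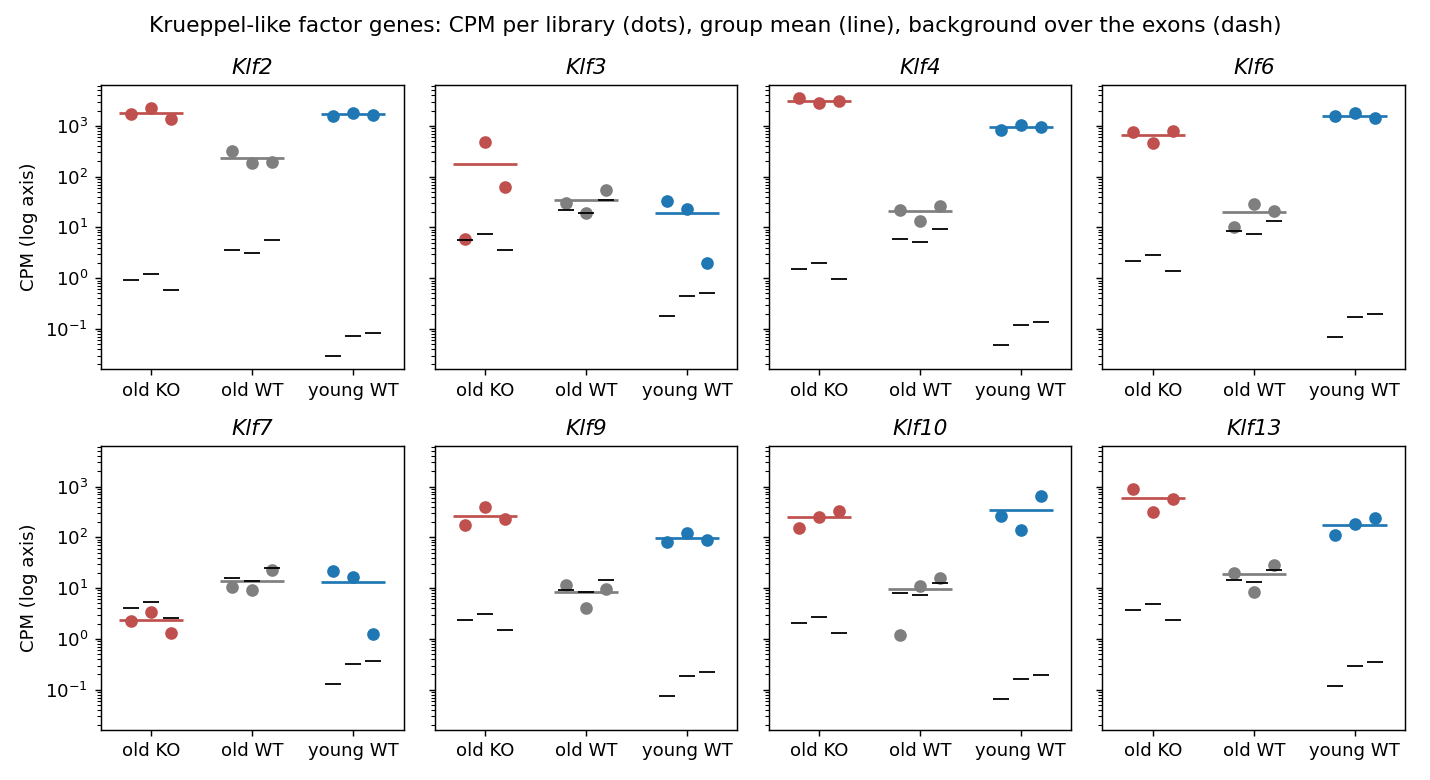
Level of each of the 8 genes in CPM on a log axis, 1 panel per gene, with a dot for each library (replicates 1, 2 and 3 from left to right within a group), a line at the group mean and a black dash at the level that the library's background would give over the gene's exons. Klf4, Klf6, Klf9, Klf10 and Klf13 lie near the dashes in old WT and far above them in old KO and young WT, and Klf2 lies above them in all 9 libraries.

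Klf4, a factor of monocyte differentiation and of reprogramming to pluripotency, lies on the minus strand of chromosome 4, at chr4:55527143-55532466 (GRCm38). It had 3561, 2770 and 3127 CPM in the old KO libraries, 22.5, 13.4 and 27.0 CPM in the old WT libraries and 813, 1063 and 936 CPM in the young WT libraries. The 3 groups did not overlap: old KO was the highest and old WT the lowest. The raw counts behind these levels were 47927, 31256 and 54866 in old KO, 115, 42 and 93 in old WT and 60170, 29863 and 29057 in young WT. The old WT counts were only 2.55 to 3.80 times those that the background gives over the exons of Klf4, so a fold change against old WT is one against a level near background. By rank of CPM among protein-coding genes, Klf4 stood at 43, 62 and 57 in the old KO libraries and at 147, 134 and 140 in the young WT libraries, against 3017 to 5720 in the old WT libraries.

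Klf6, first described as a factor of core promoter elements and needed for early blood formation in the mouse embryo, lies on the plus strand of chromosome 13, at chr13:5861482-5870394. It had 762, 453 and 786 CPM in the old KO libraries, 10.4, 29.3 and 20.9 CPM in the old WT libraries and 1559, 1789 and 1408 CPM in the young WT libraries. Again the 3 groups did not overlap, but here young WT was the highest and old KO lay between the others. Klf4 and Klf6 thus stood in the opposite order in old KO and young WT. The ratio of Klf4 to Klf6 counts, which does not depend on how libraries are scaled, was 4.68, 6.12 and 3.98 in old KO, 2.17, 0.457 and 1.29 in old WT and 0.521, 0.594 and 0.665 in young WT. Every old KO ratio was above 3 and every young WT ratio below 1, while the old WT ratio rests on 42 to 115 counts of Klf4 and 53 to 92 counts of Klf6.

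Klf2, the factor of lymphocyte quiescence and of endothelial shear response, lies on the plus strand of chromosome 8, at chr8:72319033-72321656. It had 1748, 2233 and 1373 CPM in the old KO libraries, 324, 184 and 198 CPM in the old WT libraries and 1546, 1813 and 1668 CPM in the young WT libraries. Old KO and young WT overlapped, and every old WT library lay below both. In contrast to the other members, Klf2 had 35.5 to 90.4 times the background count in old WT, with 579 to 1655 counts. Its rank among protein-coding genes was 101, 77 and 116 in old KO, 382, 543 and 357 in old WT and 102, 91 and 101 in young WT. Compared per kb of exon, Klf2 and Klf4 stood at 966 ± 234 and 1034 ± 130 CPM per kb in old KO, 127 ± 41.6 and 6.87 ± 2.28 in old WT and 907 ± 72.3 and 307 ± 41.0 in young WT (SD, n = 3 each).

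The promoters of these 3 genes are shown because these genes had the highest mean levels per kb of exon in old KO and in young WT, and because the cascade described above acts on the promoters of Klf2 and Klf4 in endothelial cells. Each sequence is the 250 bases before the RefSeq transcription start (GRCm38.p6), on the strand of the gene. Capitals mark matches, on either strand, to a MEF2 box, a CArG box (the site of serum response factor), TGACG (the core of the cAMP response element), CCAAT, and the motif of Krueppel-like factors themselves, CCACCC. Klf2 lies at chr8:72318812-72319061, Klf4 at chr4:55532476-55532725 on the minus strand, and Klf6 at chr13:5861239-5861488.
Klf2: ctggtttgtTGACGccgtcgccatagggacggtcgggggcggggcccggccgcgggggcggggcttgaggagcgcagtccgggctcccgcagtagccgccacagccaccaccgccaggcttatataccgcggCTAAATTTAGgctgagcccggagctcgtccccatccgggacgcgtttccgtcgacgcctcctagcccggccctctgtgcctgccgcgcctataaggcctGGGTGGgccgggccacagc
Klf4: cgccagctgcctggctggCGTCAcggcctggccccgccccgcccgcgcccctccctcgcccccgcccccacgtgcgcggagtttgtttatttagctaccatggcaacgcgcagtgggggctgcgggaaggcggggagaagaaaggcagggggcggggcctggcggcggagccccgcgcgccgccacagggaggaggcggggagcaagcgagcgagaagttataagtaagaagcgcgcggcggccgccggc
Klf6: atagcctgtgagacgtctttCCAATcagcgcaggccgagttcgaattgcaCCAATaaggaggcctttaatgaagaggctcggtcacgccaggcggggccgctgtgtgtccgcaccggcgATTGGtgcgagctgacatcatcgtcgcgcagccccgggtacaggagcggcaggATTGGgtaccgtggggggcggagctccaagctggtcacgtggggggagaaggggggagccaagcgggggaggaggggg
The 3 promoters held different matches. Klf2 was the only one of the 7 members found in the promoter table with a MEF2 box, from 118 to 109 bases before the start, and 2.92% of all 32851 promoters of the same length hold one. Klf2 and Klf4 each had 1 TGACG, as did Klf9 and Klf13, against 17.8% of all promoters. Klf6 had 4 CCAAT boxes and neither a TGACG nor a MEF2 box, and CCAAT is in 33.8% of all promoters. No member had a CArG box, which 1.47% of promoters hold. CCACCC was found in the promoters of Klf2, Klf3, Klf7 and Klf13, and in 28.1% of all promoters. GGGCGG, the GC box, is not marked and can share bases with the reverse of CCACCC; it had 2 matches in Klf2, 4 in Klf4 and 1 in Klf6, and is in 32.7% of all promoters. The 3 promoters were rich in G and C, with 71.2% in Klf2, 74% in Klf4 and 64.8% in Klf6, against a median of 52.4% over all promoters. A match only describes these letters and does not show that a factor binds there. The promoter of Klf10 was not used here.

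Klf13, Klf9 and Klf10 were expressed at lower levels. Klf13, known from T cells as an activator of the chemokine gene Ccl5, had 902, 323 and 582 CPM in the old KO libraries, 19.6, 8.27 and 29.0 CPM in the old WT libraries and 111, 183 and 237 CPM in the young WT libraries. Klf9, a gene induced by glucocorticoid and thyroid hormone, had 177, 393 and 233 CPM in the old KO libraries, 11.5, 4.13 and 9.57 CPM in the old WT libraries and 81.5, 123 and 89.1 CPM in the young WT libraries. For both genes the 3 groups did not overlap, with old KO the highest and old WT the lowest, the same order as for Klf4. Klf10, a repressor gene induced by TGF-beta, had 155, 251 and 338 CPM in the old KO libraries, 1.17, 11.1 and 15.95 CPM in the old WT libraries and 260, 139 and 643 CPM in the young WT libraries. Old KO and young WT overlapped for Klf10, and old WT lay below both. In old WT, Klf9 had 13 to 59 counts, Klf10 6 to 55 and Klf13 26 to 100, all at most 1.55 times the background count, so none of these genes was detectable above background at this depth.

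Klf3 and Klf7 differed from the other members. Klf3, a repressor that works through CtBP proteins, had 5.94, 475 and 62.7 CPM in the old KO libraries, 29.7, 19.4 and 53.7 CPM in the old WT libraries and 32.8, 23.4 and 2.00 CPM in the young WT libraries. The groups overlapped, the old KO libraries spanned a 79.9-fold range, and library 2 of old KO alone gave most of that group's mean: without it the log2 fold change of old KO against old WT was 0.003, against 2.40 with it. Klf7, best known for its part in neuron development, had 2.23, 3.46 and 1.31 CPM in the old KO libraries, 10.4, 9.22 and 22.3 CPM in the old WT libraries and 22.1, 16.4 and 1.26 CPM in the young WT libraries. It was above background in libraries 1 and 2 of young WT and in no other library, so its higher CPM in old WT than in old KO is a difference between levels at or below background. The exons of Klf7 share 39.3% of their bases with Gm26649, a gene on the opposite strand that was listed with 0 counts in all 9 libraries, and the strand setting of the counting is not given in the sources used here. Those of Klf3 share 3.59% with Gm20033, also on the opposite strand, which had 1076, 47 and 3 counts in the old KO libraries. How reads over these shared bases were counted is therefore not known. The background of Klf7 was set over all its exon bases, the shared ones included. In library 3 of young WT Klf7 had 39 counts, 3.37 times that background.

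The balance among the 8 genes was read as the share of each in their summed counts, which needs no scaling of libraries. The summed level of the 8 genes was 7314, 6901 and 6503 CPM in the old KO libraries, 429, 279 and 376 CPM in the old WT libraries and 4425, 5151 and 4985 CPM in the young WT libraries. Klf4 made up 48.7%, 40.1% and 48.1% of the counts in old KO, 5.24%, 4.79% and 7.17% in old WT and 18.4%, 20.6% and 18.8% in young WT. Old KO libraries held the highest share of Klf4 and old WT libraries the lowest, without overlap. Klf6 made up 10.4%, 6.56% and 12.1% in old KO, 2.42%, 10.5% and 5.55% in old WT and 35.2%, 34.7% and 28.3% in young WT. Its share was highest in young WT, while the ranges of old KO and old WT overlapped. Klf2 made up 23.9%, 32.4% and 21.1% in old KO, 75.5%, 66.0% and 52.6% in old WT and 34.9%, 35.2% and 33.5% in young WT. Klf2 was thus the largest part in every old WT library. After the background was subtracted, the mean share of Klf2 in old WT was 84.2%, against 64.7% before. Klf13 had 4.69% to 12.3% in old KO, 2.96% to 7.71% in old WT and 2.51% to 4.76% in young WT, with overlapping ranges.

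**Figure D2:**
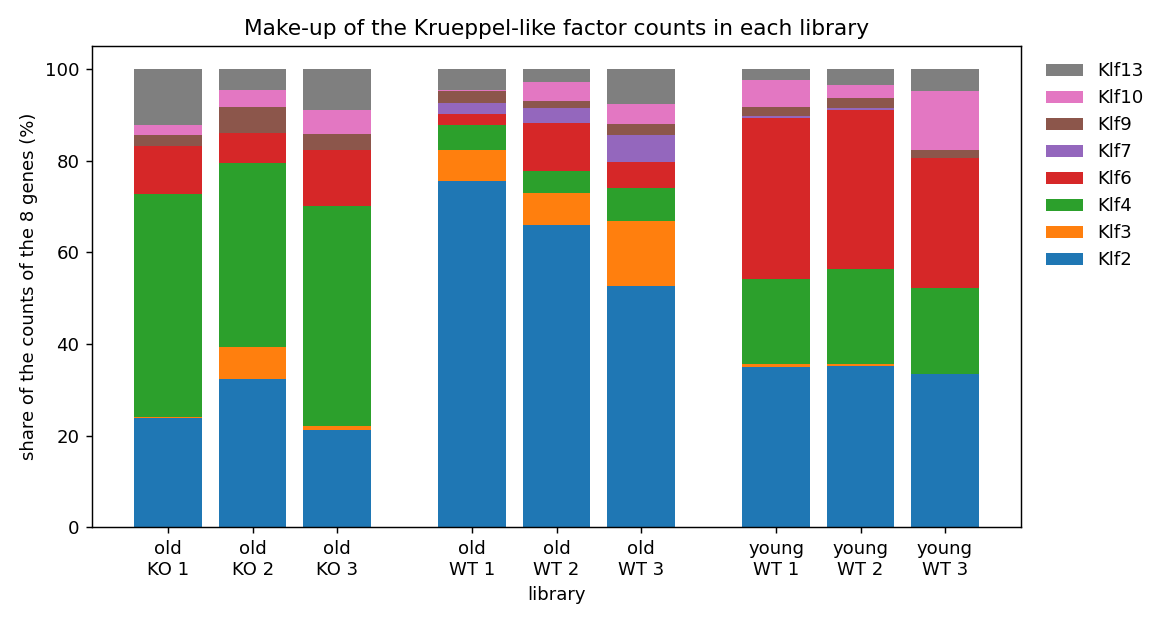
Share of each gene in the summed counts of the 8 genes, in percent from 0 to 100, as 1 stacked bar per library for old KO, old WT and young WT, replicates 1 to 3 in each group. Klf4 takes 40.1% to 48.7% in old KO, Klf2 takes 52.6% to 75.5% in old WT, and Klf2 and Klf6 are the 2 largest parts in each young WT library.

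Old KO against old WT compares the Sphk2 allele at the same age. Klf4 was higher in old KO by a log2 fold change of 7.23 ± 0.88 (SE). Called means an adjusted p under 0.05 in edgeR's quasi-likelihood test with Benjamini-Hochberg adjustment over all genes. Klf4 was 1 of only 2 genes called higher, 0.00614% of the 32582 tested and 0.0341% of the 5873 tested genes above background in every young WT library, the other being Fosb, an AP-1 gene, and 0% were called lower. At an unadjusted p under 0.05 there were 9528 genes. The other 7 members were not called in this comparison. Their log2 fold changes were 5.05 ± 0.90 for Klf6, 4.99 ± 1.07 for Klf13, 4.99 ± 1.13 for Klf9, 4.72 ± 1.23 for Klf10, 2.92 ± 0.73 for Klf2, 2.40 ± 1.42 for Klf3 and -2.58 ± 1.19 for Klf7 (SE). The CPM ranges of the 2 groups did not overlap for 6 members that were higher in old KO, which holds for 1.91% of all tested genes and for 10.1% of those 5873, and the range of Klf7 lay below that of old WT, as for 48.8% of all tested genes and 20.6% of those 5873. The median log2 fold change of the 8 members was 4.85, against -1.91 over all tested genes and 0.04 over those 5873. The call of Klf4 was lost without library 3 of old KO or without any 1 of the young WT libraries, while its log2 fold change stayed between 6.99 and 7.46 over the 9 fits that leave out 1 library. The number of members called higher depended on the tool. It was 6 with TMM factors, which scale libraries by a trimmed mean of log ratios, where 149 genes or 0.457% of all tested were called higher and 0 lower. With upper-quartile or median-of-ratios factors it stayed at 1 member, of 2 genes called. DESeq2 called 7 members higher, of 1978 genes higher (19.1% of the 10342 to which it gave an adjusted p) and 156 lower. Limma-voom called 5, of 111 genes higher (0.341%) and 208 lower.

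**Figure D3:**
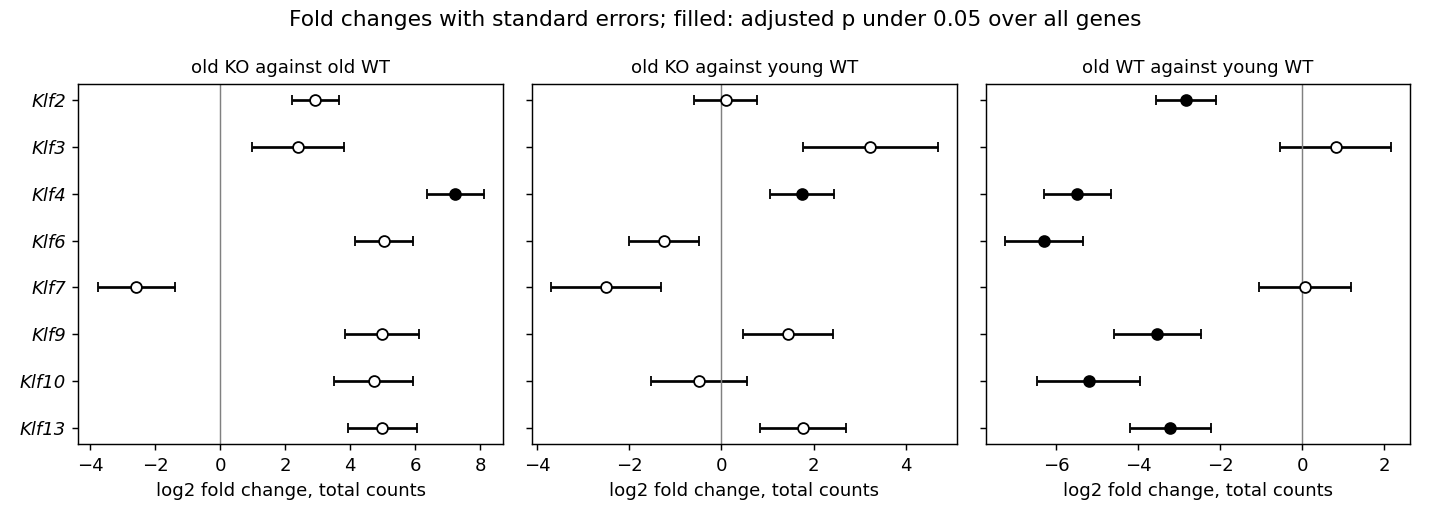
Log2 fold change of each of the 8 genes with total counts as library size, with its standard error as a bar, in 3 panels for old KO against old WT, old KO against young WT and old WT against young WT. A filled dot has an adjusted p under 0.05 over all tested genes: Klf4 alone in the first 2 panels, and Klf2, Klf4, Klf6, Klf9, Klf10 and Klf13 in the third.

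Old WT against young WT compares ages in wild-type mice. The log2 fold changes were -6.30 ± 0.95 for Klf6, -5.48 ± 0.81 for Klf4, -5.21 ± 1.25 for Klf10, -3.54 ± 1.06 for Klf9, -3.22 ± 0.99 for Klf13 and -2.83 ± 0.73 for Klf2 (SE). These 6 genes were called lower in old WT, against 3.48% of all tested genes and 19% of those above background in every young WT library. Klf3, at 0.82 ± 1.35, and Klf7, at 0.08 ± 1.12, were not called, and 0 members were called higher, against 68.4% of all tested genes and 2.01% of those above background in young WT. The 6 genes also had CPM ranges that did not overlap, as did 5.87% of all tested genes in this direction and 32.6% of those above background in young WT. The median log2 fold change was -3.38 over the 8 members, 5.30 over all tested genes and -1.30 over the genes above background in young WT. With TMM factors, all fold changes shifted by a median of -3.90, which turned the direction of Klf3 and Klf7 and put Klf7 among 7 members called lower, and calls over all genes were 5996 lower (18.4%) and 6062 higher (18.6%), against 1134 and 22280 with total counts. With the background subtracted, only Klf4 at -5.50 and Klf6 at -6.70 were called, against 0.0579% of 8629 genes called lower.

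Old KO against young WT sets the old KO libraries beside young ones and differs in both age and genotype. Klf4, at 1.75 ± 0.69, was the only member called higher, against 52.7% of all tested genes and 1.09% of those above background in young WT, and 0 members were called lower, against 3.93% of all tested genes and 17.1% of those above background in young WT. The members not called were Klf13 at 1.77 ± 0.93, Klf9 at 1.45 ± 0.98, Klf2 at 0.09 ± 0.68, Klf10 at -0.49 ± 1.05, Klf6 at -1.25 ± 0.77, Klf7 at -2.51 ± 1.18 and Klf3 at 3.22 ± 1.46 (SE). The CPM ranges of Klf4, Klf9 and Klf13 lay above those of young WT, as for 53.5% of all tested genes and 3.51% of those above background in young WT, and that of Klf6 lay below, as for 4.06% and 22.5%. The direction depended on the scaling. With TMM factors the fold changes shifted by a median of -2.01 over all genes, Klf4 stood at -0.30, Klf13 at -0.22, Klf9 at -0.65 and Klf2 at -2.06, and Klf6, at -3.26, and Klf7, at -4.85, were called lower. Calls over all genes were then 1902 lower (5.84%) and 2256 higher (6.92%), against 1280 and 17158 with total counts. The call of Klf4 was lost in 6 of the 9 fits without 1 library, namely any of old KO or of young WT, with the background removed, at a threshold of 0.01, and with no filter on low counts, where Klf3 was the 1 member called, higher in old KO.

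**Figure D4:**
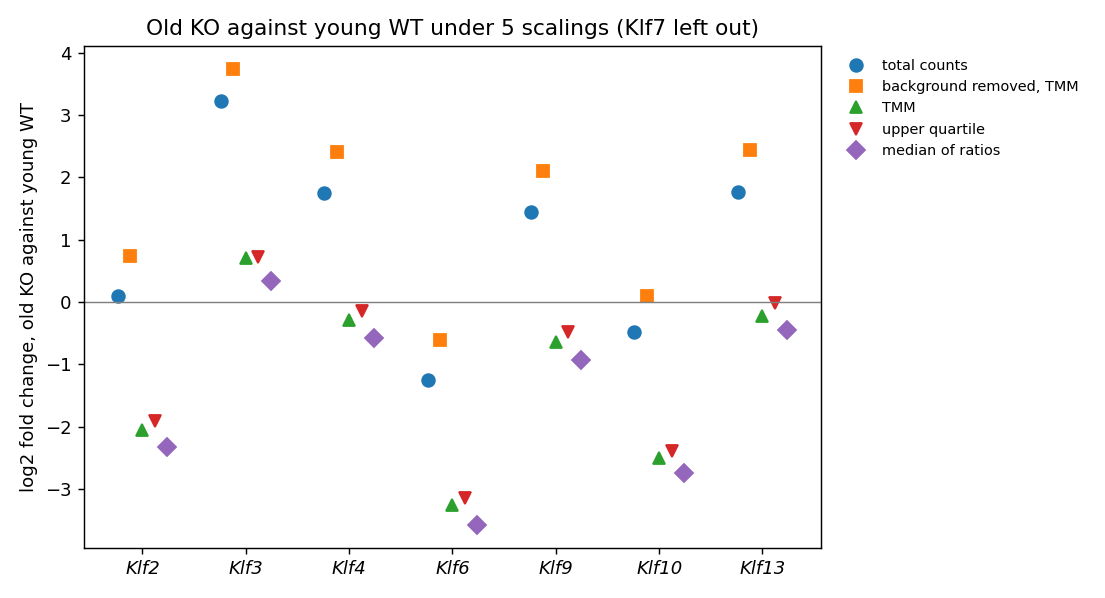
Log2 fold change of 7 of the 8 genes in old KO against young WT under 5 scalings of the libraries: total counts, background removed with TMM factors, TMM factors, upper-quartile factors and median-of-ratios factors. Klf7 is left out because its background-corrected counts were 0 in old KO. Klf4, Klf9 and Klf13 lie above 0 under the first 2 scalings and below 0 under the other 3, and Klf6 lies below 0 under all 5.

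The rest of the family was described from 18 other Klf and Sp genes, of which 17 were tested. Only Klf11 was above background in all 3 old KO and all 3 young WT libraries, with 13.1, 148 and 279 CPM in old KO, 12.3, 5.72 and 14.8 CPM in old WT and 70.2, 24.8 and 48.1 CPM in young WT. Between old KO and old WT, 0 of the 17 passed edgeR's test, with 3 at an unadjusted p under 0.05, and Klf11 had a log2 fold change of 3.74 ± 1.28 with an adjusted p of 0.153. Sp1 and Klf1, those with the highest mean CPM in young WT, stood at -0.22 ± 1.24 and -0.24 ± 1.88, and leaving out 1 library moved them between -1.27 and 0.17 and between -1.30 and 1.40. In old WT against young WT, 11 of 17 were called higher, against 68.4% of all tested genes, and none of those 11 was above background in any old WT library. The largest were Sp7 at 7.87, Klf5 at 7.83, Sp5 at 7.48 and Sp8 at 7.31, each at 0 to 7 counts in every young WT library. With TMM factors the same list had 6 genes called lower and 3 higher, against 18.4% and 18.6% of all tested genes. The median log2 fold change of genes above background in every young WT library was -5.34 with these factors. Klf1, an erythroid factor, was the only one called lower, against 3.48% of all genes, at -6.11 ± 2.24 with an adjusted p of 0.021 in edgeR's test, but library 1 of young WT held 14634 counts of it and the other two 1 and 42, and without that library the log2 fold change was 0.45. The call of Klf1 was lost in 3 of the 9 fits without 1 library, those that leave out this library or library 2 or 3 of old WT. Klf1 was above background in no old WT library. Set against young WT, old KO had 9 of 17 genes called higher, against 52.7% of all tested genes, of which 3 were above background in any old KO library, and 2 lower, against 3.93%. The largest higher calls were Klf5 at 9.15, Sp4 at 7.29 and Sp7 at 5.89. Klf5 had 1.93, 56.1 and 1.60 CPM in old KO, above background in library 2 alone, and stood at 5.70 without it, and that of Sp4 was lost, at 2.69, without library 3 of old KO, which held 248.5 CPM of it. The 2 lower ones were Klf1 at -6.35 ± 2.24, which was 0.21 without library 1 of young WT, and Klf16 at -4.38 ± 1.58, whose call was kept in 5 of the 9 fits without 1 library. Neither of them was above background in any old KO library. With TMM factors 2 were called higher and 2 lower, against 6.92% and 5.84% of all tested genes. The median log2 fold change of the 17 was -0.96 in old KO against old WT, 4.77 in old WT against young WT and 3.11 in old KO against young WT, beside -1.91, 5.30 and 3.24 over all tested genes.

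Genes of the pathway that acts on the family were taken from a list of 9 upstream factors: Map3k2, Map3k3, Map2k5, Mapk7, Mef2a, Mef2c, Mef2d, Srf and Foxo1. Between old KO and old WT, 0 of 9 passed edgeR's test, with 1 at an unadjusted p under 0.05, and Mef2c, the most abundant of them in young WT, stood at -2.15 ± 1.21, or -0.57 without library 2 of old WT, which held 316 CPM of it. In old WT against young WT, 1 of 9 was called lower and 0 higher, against 3.48% and 68.4% of all tested genes. Among genes above background in every young WT library these shares were 19% and 2.01%. The gene called lower was Srf, the serum response factor that drives early response genes. It had 84.5, 47.1 and 164 CPM in old KO, 9.38, 6.99 and 9.86 CPM in old WT and 132, 154 and 122 CPM in young WT. Old WT lay below both other groups, whose ranges overlapped, but Srf was above background in no old WT library. The log2 fold change of Srf was -3.95 ± 1.12 in old WT against young WT (adjusted p = 0.0048 in edgeR's test) and 3.49 ± 1.09 in old KO against old WT (adjusted p = 0.149). Between old KO and young WT, Mapk7, the kinase above the MEF2 factors, was the only one called, at -4.78 ± 1.53 (adjusted p = 0.018 in edgeR's test). It was called lower in old KO, against 3.93% of all tested genes and 17.1% of those above background in every young WT library. It had 1.26, 1.51 and 0.912 CPM in old KO, above background in no library there. In young WT it had 0.257, 52.5 and 48.8 CPM and was above background in 2 libraries. The groups overlapped for Mapk7, because library 1 of young WT lay below the old KO libraries. With TMM factors 6 of the 9 were called lower in old WT against young WT, against 18.4% of all tested genes. In old KO against young WT 2 of the 9 were, against 5.84%. With total counts the median of the 9 was -0.02 in old KO against old WT, -0.52 in old WT against young WT and -0.15 in old KO against young WT. Over all tested genes the medians were -1.91, 5.30 and 3.24, and over genes above background in every young WT library 0.04, -1.30 and -0.70.

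Of 13 partners and ubiquitin ligases, 0 passed edgeR's test in old KO against old WT, with 2 at an unadjusted p under 0.05. Ctbp1, the most abundant in young WT, stood at 0.30 ± 1.03, between -0.31 without library 1 of old KO and 1.28 without library 1 of old WT. Hdac1, a histone deacetylase gene, had 3.94, 5.67 and 100 CPM in old KO and 22.3, 16.9 and 31.9 CPM in old WT, and its 0.63 ± 1.28 was -2.30 without library 3 of old KO. In old WT against young WT 1 was called lower and 4 higher, against 3.48% and 68.4% of all tested genes. In old KO against young WT 1 was called lower and 2 higher, against 3.93% and 52.7%. Among genes above background in every young WT library, these shares were 19% and 2.01% for old WT and 17.1% and 1.09% for old KO. The median of the 13 was -0.03 in old KO against old WT, -0.69 in old WT against young WT and 0.26 in old KO against young WT. Over all tested genes the medians were -1.91, 5.30 and 3.24, and over genes above background in every young WT library 0.04, -1.30 and -0.70. The one called lower in both was Ctbp1, the corepressor that Klf3 recruits, with 42.7, 10.1 and 23.0 CPM in old KO, 40.7, 9.86 and 11.02 CPM in old WT and 328, 258 and 273 CPM in young WT. Both old groups lay far below young WT, at -3.80 ± 1.15 for old WT (adjusted p = 0.0072) and -3.50 ± 1.13 for old KO (adjusted p = 0.019) in edgeR's test. The last call was lost without library 2 of old KO, at -3.12. Ctbp1 was above background in no old WT library and in 2 of the 3 old KO libraries. The genes called higher in old WT were Fhl3 at 5.53, Wwp1 at 5.49, Btrc at 3.19 and Fbxw7 at 2.72, none of them above background in any old WT library. The calls of Btrc and Fbxw7 were kept in 6 and 2 of the 9 fits without 1 library. With TMM factors 0 of the 13 were called higher and 7 lower, against 18.6% and 18.4% of all tested genes. The 2 called higher in old KO were Fhl3 at 3.83 and Wwp1 at 2.84. They were above background in none of the 9 libraries and were called in 6 and 1 of the 9 fits without 1 library. With TMM factors 0 of the 13 were called higher and 1 lower in that comparison, against 6.92% and 5.84% of all tested genes.

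Of 10 reported targets of these factors, 0 passed edgeR's test in old KO against old WT, with 5 at an unadjusted p under 0.05. With TMM factors 1 of the 10 was called higher, against 0.457% of all tested genes. This was Smad7, at 6.32 with TMM factors and 4.30 ± 1.06 with total counts (adjusted p = 0.148 in edgeR's test). Its value with total counts stayed between 4.16 and 4.50 over the 9 fits without 1 library. Cdkn1a, the cell cycle inhibitor p21 and the most abundant in young WT, had 851, 279 and 744 CPM in old KO and 22.9, 616 and 9.86 CPM in old WT. Its log2 fold change of 1.53 ± 1.20 rests on library 2 of old WT, without which it was 5.25. In old WT against young WT 2 were called lower and 4 higher, against 3.48% and 68.4% of all tested genes. Among genes above background in every young WT library, as both called lower were, these shares were 19% and 2.01%. S1pr1, the receptor gene that Klf2 activates in T cells, had 6.02, 58.8 and 5.30 CPM in old KO, 1.56, 1.59 and 5.51 CPM in old WT and 258, 17.4 and 370 CPM in young WT. Its log2 fold change in old WT against young WT was -6.22 ± 1.60 (adjusted p = 0.0027 in edgeR's test), without overlap. In old KO against old WT it was 3.02 ± 1.39, and 0.97 without library 2 of old KO. Smad7, the other gene called lower, had 243, 156 and 260 CPM in old KO, 11.1, 9.54 and 12.8 CPM in old WT and 186, 109 and 175 CPM in young WT, a log2 fold change of -3.81 ± 1.04 in old WT against young WT (adjusted p = 0.0038 in edgeR's test). Old KO and young WT overlapped for Smad7, and neither S1pr1 nor Smad7 was above background in any old WT library. The 4 called higher were Ccr7 at 10.28, Nos3 at 6.56, Thbd at 4.96 and Ccl5 at 4.68. Of these, Nos3, Thbd and Ccl5 were above background in no old WT library. Ccr7 was above it in library 1 of old WT alone, with 619 CPM there and 4.45 and 3.19 CPM in libraries 2 and 3. It stood at 4.53 without library 1. The call of Ccl5 was lost, at 4.01, without the same library of old WT. With TMM factors 4 were called lower and 2 higher, against 18.4% and 18.6% of all tested genes. Set against young WT, old KO had 0 targets called lower and 2 higher, Nos3 at 4.03, which was above background in no library, and Itgb7 at 4.20, whose call was lost, at 1.95, without library 2 of old KO. These counts stood against 3.93% and 52.7% of all tested genes, and 17.1% and 1.09% of those above background in every young WT library. With TMM factors 2 targets were called lower and 0 higher in old KO, against 5.84% and 6.92% of all tested genes. The median of the 10 was -0.39 in old KO against old WT, 1.85 in old WT against young WT and 1.26 in old KO against young WT. Over all tested genes the medians were -1.91, 5.30 and 3.24, and over genes above background in every young WT library 0.04, -1.30 and -0.70.

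Klf2 and Klf4 are also strongly expressed by endothelial cells, so markers of endothelial and stromal cells were counted beside them. Of 6 such markers, 0 were above background in at least 2 libraries of any group, and Cdh5, Kdr, Cxcl12, Col1a1 and Lepr were above it in none of the 9 libraries. Pecam1 was above it in library 2 of young WT, with 152.4 CPM, and in library 3 of old KO, with 36.65 CPM. None of the 6 was above it in any old WT library. The summed level of the 6 was 31.1 to 51.5 CPM in old KO, 111 to 132.5 CPM in old WT and 1.12 to 154.5 CPM in young WT. Neutrophil markers were above background in at least 2 libraries for 2 of 6 genes in old KO, 1 of 6 in old WT and 4 of 6 in young WT, with summed levels of 13.7 to 470 CPM, 39.3 to 628 CPM and 38.6 to 144 CPM in these groups. Of the 5 monocyte and macrophage markers, Csf1r, Adgre1 and Ms4a6c were above background in no library and Cd68 in library 2 of young WT alone. Lyz2, the lysozyme gene of myeloid cells, was above it in all 3 old KO libraries, with 185, 6.91 and 371 CPM, in library 1 of old WT, with 293 CPM against 5.41 and 9.28 CPM in the other two, and in all 3 young WT libraries, with 265, 187 and 283 CPM. The summed level of the 5 was 20.1 to 375.4 CPM in old KO, 36.3 to 314.6 CPM in old WT and 233.9 to 283.8 CPM in young WT. Erythroid markers were above background in at least 2 libraries for 0 of 7 genes in old KO, 0 of 7 in old WT and 6 of 7 in young WT, and their sums were 3.08 to 6.02 CPM, 17.4 to 29 CPM and 115 to 250.6 CPM in these groups. For megakaryocytes and platelets the counts were 2 of 5, 0 of 5 and 3 of 5 genes in the same groups, with sums of 87.6 to 555.7 CPM in old KO, 39.7 to 396.8 CPM in old WT and 367 to 828.5 CPM in young WT. B cell markers reached this in 0 of 5 genes in old KO, 0 of 5 in old WT and 1 of 5 in young WT, with sums of 9.31 to 159.2 CPM, 38.3 to 86.2 CPM and 7.23 to 82.4 CPM, and T and NK cell markers in 1 of 5, 0 of 5 and 1 of 5, with sums of 8.40 to 175.5 CPM, 22.9 to 57.7 CPM and 76.4 to 162.6 CPM. The part of all these cells in the levels of the 8 genes was not tested.

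The genes most like each member were found among 8628 genes above background in at least 2 libraries of a group, as those with the smallest root mean square difference of log2(CPM + 1) after centring on the mean of the 9 libraries. These values share libraries, depth and background and are given as a description. For Klf4 they were Sertad1 at 0.61, Atf3 at 0.61 and Fosb at 0.83, the last 2 being early response genes. Sertad1 averaged 1529 CPM in old KO, 21.2 CPM in old WT and 382 CPM in young WT. Of the 3 genes nearest to Klf4, Sertad1 and Atf3 were, like it, higher in old KO than in young WT without overlap, while Fosb, at 4302 CPM in old KO and 4603 CPM in young WT, overlapped between them. For Klf6 they were Ctla2a at 0.49, Ier3 at 0.50 and Ddit3 at 0.54, and near Klf2 lay the chaperone gene Dnajb1 at 0.32 and the dynein light chain gene Dynll1 at 0.39. Dnajb1 averaged 4097 CPM in old KO, 407 CPM in old WT and 2549 CPM in young WT. For Klf13 they were the histone demethylase gene Kdm6b at 0.45, Hnrnph1 at 0.53 and Ifrd1 at 0.53, and for Klf9 Tpm3 at 0.40, Rtcb at 0.43 and Tsc22d2 at 0.47. Near Klf10 lay Strap at 0.77 and Ybx1 at 0.82. Klf3 had Pnpla8 at 0.42, Adprhl2 at 0.65 and Wdr12 at 0.73, and Klf7 had Rcor3 at 0.23, Hsd17b11 at 0.30 and Prpf3 at 0.31. Among the 8 members themselves the closest pair was Klf9 and Klf13, at 0.71, and no member was among the 3 genes nearest to another.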

How the data were processed

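RNA was sequenced in 9 libraries, 3 per group. The authors deposited raw read counts per gene, made on mm10 with STAR 2.6.1d, HTSeq 0.10.0 and Trim Galore 0.6.2 according to the submitters' processing notes, which also list edgeR 3.24.3. Which gene annotation and strand setting the counting had is not given in the sources used. The 5 lines that name no gene stayed out of library sizes and tests; the ambiguous share was 0.619% to 5.48% of all counts. Symbols, coordinates and exon lengths (GENCODE M21, GRCm38) matched 52403 of 52550 identifiers. From the deposited counts, CPM and fold changes were computed with edgeR 4.0.16 in R 4.3.3: quasi-likelihood F test, all 9 libraries, group means, total counts in genes as library size, filterByExpr, Benjamini-Hochberg at 0.05. Total counts were used because most genes tested in old WT lay near background, which TMM factors would centre. SE is the log2 fold change divided by the root of F. The 8 genes, the lists and the rule for named genes were chosen with earlier results of these data known. The rule named all 8 members, up to 4 called genes of each list with the largest change (or, with none called, up to 2), and the 3 nearest genes of each member; Klf11 and the overlapping genes were named after their values were seen. Some genes that the rule gave are not reported here. For the background, the densest 1% of olfactory receptor genes was left out in each library. Promoters come from RefSeq (GRCm38.p6; 7 of 8 members found), with the 250 bases before the start searched on both strands. Alternatives were other scaling factors, filters, DESeq2 1.42.0, limma-voom (limma 3.58.1), 6 libraries alone, a replicate block, each library left out, background removed, thinning to 3145167 counts, and a threshold of 0.01. Scripts were tested on simulated data. Intervals and SE cover these libraries only; PCR reads without molecular identifiers are not independent molecules.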

Additional observations from a re-analysis of the deposited data

How the results depend on the processing

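The old WT libraries, with 3145167 to 5115003 counts in genes and levels near background for 7 of the 8 genes, limit every fold change against old WT. In old WT against young WT, Klf2, Klf4, Klf6, Klf9, Klf10 and Klf13 were lower under every alternative run, and 6 members were called in each fit without 1 library. With TMM, upper-quartile or median-of-ratios factors 7 were called, with Klf7 lower. Of 32582 genes, 5996, 5771 and 5936 were then called lower and 6062, 9275 and 7538 higher. DESeq2 called 8, with Klf3 too, all lower. It called 6447 of the 29807 genes with an adjusted p lower and 10380 higher. With the background removed 2 members were called, where 5 of 8629 genes were called lower and 7 higher. Klf3 and Klf7 turned to -3.44 and -4.18 with TMM factors, -3.29 and -4.02 with upper-quartile factors, -3.46 and -4.19 with median-of-ratios factors, -3.46 and -4.20 with DESeq2 and -0.56 and -10.94 with the background removed; Klf7 was -0.15 after thinning, -0.46 without young WT library 3 and -0.43 without old WT library 3, within -0.46 to 0.66 over the fits without 1 library. In old KO against young WT, Klf2, Klf4, Klf9 and Klf13 turned to -2.06, -0.30, -0.65 and -0.22 with TMM, -1.91, -0.14, -0.47 and -0.014 with upper-quartile and -2.33, -0.58, -0.93 and -0.45 with both median-of-ratios factors and DESeq2. Klf10 was 0.10 with the background removed and 0.31 without young WT library 3, within -0.86 to 0.31 over such fits, and Klf2 was -0.10 without old KO library 2, within -0.10 to 0.25. Each scaling factor changes all genes of a library by the same multiple, but the fold changes between groups did not all move by the same amount. The cause of the turns was not tested.

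Members called in old KO against old WT numbered 1, and 6 with TMM, 2 with no filter, 2 with at least 5 CPM in 3 libraries, 7 with DESeq2, 5 with limma-voom, 7 with the 6 libraries alone (6 higher and Klf7 lower), 2 after thinning and 0 to 1 over the fits without 1 library. In old KO against young WT 1 member was called, Klf4, higher. With TMM, upper-quartile or median-of-ratios factors 2 were called, Klf6 and Klf7, both lower. DESeq2 called 4, Klf2, Klf6, Klf7 and Klf10, all lower, where 4479 genes were called lower and 4675 higher. With the 6 libraries alone 3 were called, Klf4 and Klf13 higher and Klf6 lower. The number was 0 with the background removed or at 0.01, and 0 to 1 over the fits without 1 library. Klf4 kept its call in 3 of these 9 fits. With no filter the 1 call was of Klf3, higher, and that of Klf4 was lost. Of all genes, 23414 were called in old WT against young WT, and 12058 with TMM, 15046 with upper-quartile, 13474 with median-of-ratios, 6892 with at least 5 CPM, 12 with the background removed, 10210 after thinning, and 23393 to 27869 without 1 library. In old KO against old WT 2 were called, and 149 with TMM, 116 with no filter, 10 with at least 5 CPM, 2134 with DESeq2, 319 with limma-voom, 8046 with 6 libraries (7691 lower and 355 higher, against 0 lower with all 9), 14 with the background removed, 18 after thinning, and 0 to 5 without 1 library. In old KO against young WT 18438 were called, and 4158 with TMM, 6110 with upper-quartile, 3700 with median-of-ratios, 6257 with at least 5 CPM, 9154 with DESeq2, 11182 with 6 libraries, 4 with the background removed, 7261 after thinning, 3997 at 0.01, and 12329 to 18999 without 1 library. Removing the background changed the mean shares of the 8-gene counts in old WT to 84.2% for Klf2, 3.42% for Klf3, 0.207% for Klf9, 1.31% for Klf13 and 0% for Klf7, and to 0% for Klf7 in old KO.

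The replicate numbers did not pair the libraries: same-numbered libraries had correlations of -0.0212 to 0.0416 over 9 pairs, and 1 of 9 libraries was closest to its own number. With the replicate block, 2 genes and 1 member were called in old KO against old WT, 15641 genes and 0 members (Klf4 lost) in old KO against young WT, and 23142 genes and 6 members in old WT against young WT.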
